A study of Homo sapiens with 2 samples.

Results

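The DNAJ genes encode the J proteins, the cochaperones of HSP70, and 44 of the 60623 genes in the deposited tables are described here. They are the protein-coding genes with a symbol of the form DNAJA, DNAJB or DNAJC followed by a number, except 1 class C gene that is not reported. The rule uses symbols and biotypes and no counts, and the genes fall into 4 class A, 12 class B and 28 class C genes. They were compared between a culture of OCI-AML3, an established human acute myeloid leukaemia line labelled wild type, kept for 24 h in omipalisib (GSK2126458) at 50 nM, an inhibitor of the PI3K lipid kinases and of mTOR, and a culture that received the vehicle, DMSO. Both cultures grew in the same serum-containing medium, and 1 strand-specific RNA library was sequenced from each. All members come from 1 cell line and 1 library per treatment.

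A J protein binds an HSP70 through its J domain, speeds up the hydrolysis of ATP by the HSP70 and so fixes the HSP70 on a client protein. Nucleotide exchange factors then release the ADP and the client. Class A proteins keep the domain layout of the bacterial DnaJ, with a J domain, a glycine- and phenylalanine-rich stretch and a zinc-finger region. Class B proteins lack the zinc fingers, and class C proteins share only the J domain and carry diverse other domains that place HSP70 at a membrane, a ribosome, a spliceosome or another site.

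Counted fragments numbered 26367832 in DMSO and 22599164 in omipalisib. All log2 ratios are omipalisib over DMSO after scaling by the trimmed mean of M values (TMM), with 0.5 added to each count, and all levels are fragments per kilobase of exon relative to the scaled library (FPKM). Exon length is the union over annotated transcripts, so a gene with many alternative exons has a lower level on this scale. A gene was measured where its summed count was at least 20. It is called lower or higher where the 95% counting interval of its ratio, given in parentheses, excluded 0, which compares these 2 libraries and not the treatments. No p-value is given, because there is no replicate. Fewer cells with a message and less message per cell cannot be told apart, and every ratio is relative to the other messages of its library. All 8 markers of myeloid leukaemia cells on a short list reached 1 CPM in both libraries, while none of 5 lymphoid markers did. Of 5 erythroid and megakaryocyte markers, ITGA2B reached it in omipalisib, and of 5 stromal and epithelial markers COL1A2 and PECAM1 reached it in both.

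Of the 44 DNAJ genes, 38 were measured, and 18 of these were lower in the omipalisib library, 6 were higher and 14 had an interval that included 0. Over the 12260 measured protein-coding genes, 34.5% were lower and 26.4% higher by the same rule, so the members' 47.4% lower stood above that background and their 15.8% higher stood below it. The median log2 ratio of the 38 was −0.16 (−0.304 to −0.0254 over members, which are not replicates). It was −0.0304 for measured protein-coding genes, inside that interval, and 0.00 for all 15660 measured genes. Ratios of at least 1.5 with an interval clear of 0 were seen for 3 lower members, DNAJA1, DNAJB1 and DNAJC9, and for 1 higher member, DNAJC6. Those are 7.89% and 2.63% of the members measured, against 4.76% and 7.68% of protein-coding genes.

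The lower members were mostly the abundant ones. Summed counts reached 1000 in 23 members, of which 16 were lower and 1, DNAJC16, was higher. Among the 7522 protein-coding genes of that depth 46.5% were lower and 27.0% higher, against 69.6% and 4.35% of these members. Their median log2 ratio was −0.29, against −0.08 for those protein-coding genes. Of the 15 measured members under 1000, 2 (13.3%) were lower and 5 (33.3%) were higher, with a median of 0.00, near the 15.4% lower and 25.5% higher and the median of 0.08 of protein-coding genes of that depth. Depth also sets how small a difference an interval can show, so the members with few counts are the less certain ones.

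All 4 class A genes were lower, with log2 ratios from −0.64 to −0.29 and a median of −0.43. Class B had 3 lower and 1 higher gene among 9 measured, with a median of −0.09, and class C had 11 lower and 5 higher among 25, with a median of −0.13. The lower shares of classes B and C, 33.3% and 44.0%, stand beside 34.5% of protein-coding genes, so that of class B lay at the background. All class A genes reached a summed count of 1000. Among genes of that depth, 3 of 6 in class B (50.0%) and 9 of 13 in class C (69.2%) were lower, with medians of −0.14 and −0.19, against 46.5% and −0.08 for protein-coding genes, so depth moved with the difference between the classes, and its part in it was not tested. When counts were summed within a class, which weights abundant genes, the log2 ratio was −0.52 (−0.56 to −0.49) for class A, −0.23 (−0.27 to −0.20) for class B and −0.21 (−0.24 to −0.19) for class C. DNAJA1 alone gave 61.2% of class A fragments in DMSO. Without it, the summed class A ratio was −0.35 (−0.41 to −0.30), still below the ratios of the other classes. With scaling by total counts the medians were −0.38, −0.04 and −0.08 for classes A, B and C, against 0.02 for protein-coding genes. The 4 members of class A are not replicates, and no test of the difference between the classes exists with 1 library per treatment.

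**Figure D1:**
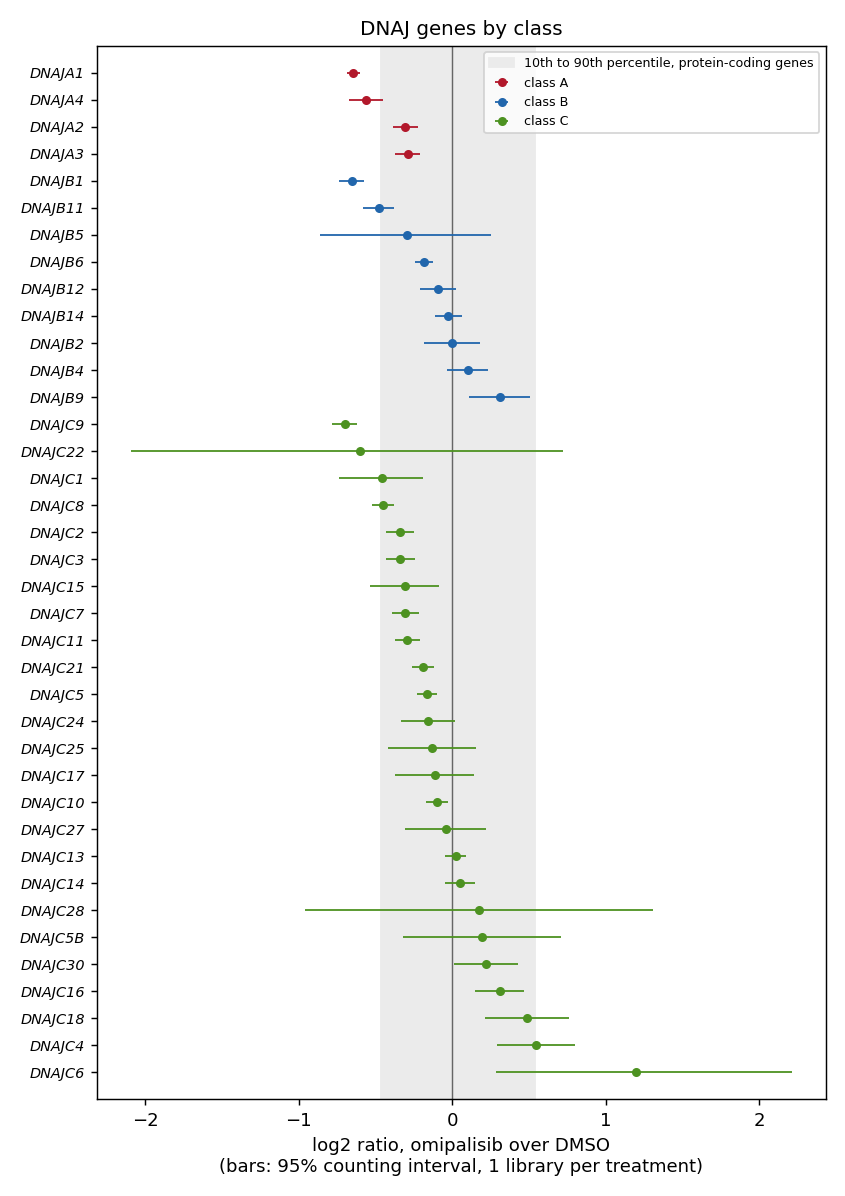
Log2 ratio of each measured DNAJ gene, omipalisib over DMSO, with its 95% counting interval, ordered within class A (red), B (blue) and C (green). The grey band spans the 10th to the 90th percentile of measured protein-coding genes; all 4 class A genes lie left of 0, while classes B and C lie on both sides.

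Because several members are textbook targets of heat shock factor 1 (HSF1), which binds inverted repeats of the letters GAA, the RefSeq promoter windows of the members, 250 bases before to 50 after each annotated start on GRCh38.p14, were searched for GAANNTTC and TTCNNGAA, which read the same on both strands. Windows were found for 40 of the 44 members, and 8 of these held a match: DNAJA1, DNAJA4, DNAJB1, DNAJB4, DNAJB6, DNAJB7, DNAJC6 and DNAJC15. Over all 35116 windows, 13.5% held one, and 16.2% of gene symbols had a window with one, so the 8 of 40 members stood near that background. The stretches before the start that hold the matches are shown for the 5 genes of general folding, of which 4 were lower in omipalisib and DNAJB4 was not. Capitals mark the matched letters. All run 5′ to 3′ on the strand of the gene.
DNAJA1: aagggctccaGAAgaTTCcacgagcgcc
DNAJA4: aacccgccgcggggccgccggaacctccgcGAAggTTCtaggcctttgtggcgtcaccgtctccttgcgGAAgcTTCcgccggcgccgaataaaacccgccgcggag
DNAJB1: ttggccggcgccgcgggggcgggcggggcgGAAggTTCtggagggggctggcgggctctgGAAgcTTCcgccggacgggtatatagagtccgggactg
DNAJB4: gcatttgctgTTCtaGAAagtacagaga
DNAJB6: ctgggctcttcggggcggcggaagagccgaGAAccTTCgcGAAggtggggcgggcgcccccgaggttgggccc
The DNAJA1 stretch is chr9:33025065-33025092 on the plus strand and lies in an exon of its divergent neighbour APTX. The DNAJA4 stretch is chr15:78264441-78264547, plus strand, and the DNAJB1 stretch is chr19:14518407-14518504, minus strand. Each lies within the annotated gene, before this start, and 4 and 14 of its bases overlap an annotated untranslated exon of other transcripts. The DNAJB1 stretch also lies within TECR, annotated on the opposite strand. DNAJA4 and DNAJB1 hold the same pair of matches, GAAGGTTC and GAAGCTTC, at bases −91 to −84 and −52 to −45 from the start in DNAJA4 and at −77 to −70 and −47 to −40 in DNAJB1. The DNAJB4 stretch is chr1:78004831-78004858, plus strand, within DNAJB4 and the overlapping gene GIPC2, with 5 of its bases in an annotated untranslated exon of DNAJB4. The DNAJB6 stretch is chr7:157336843-157336915, plus strand, in an intron of longer transcripts. In DNAJB6 and DNAJA1 the repeat ran over 3 alternating units, 2 overlapping matches, which 0.490% of all windows held. In DNAJA1 that run, GAACTTTCCAGAA, lies at bases 4 to 16 after the start. A match is a run of letters, and binding was not measured.

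Most members of general folding in the cytosol and nucleus were lower. DNAJA1 (HDJ-2), on chromosome 9 (33025273 to 33039907, GRCh38), is a main partner of the constitutive HSP70 HSPA8. It had 12234 counts in DMSO and 6946 in omipalisib, levels of 176.9 and 113.3 FPKM, a log2 ratio of −0.64 (−0.69 to −0.60). It was the most abundant DNAJ message of both libraries, and its level in DMSO was followed by 51.3 FPKM for DNAJC8. DNAJA4, on chromosome 15 (78264086 to 78282196), is its heat-inducible relative and had 1804 and 1083 counts, for a log2 ratio of −0.56 (−0.67 to −0.45), just short of 1.5-fold (0.585). DNAJA2, the other general class A partner of HSPA8, had 2995 and 2150 counts and a smaller difference, −0.30 (−0.39 to −0.22). The intervals of DNAJA1 and DNAJA4 lie below that of DNAJA2 without overlap.

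DNAJB1 (HSP40), on chromosome 19 (14514769 to 14529770), is the classical heat-induced class B protein that works with HSP70 in the removal of aggregates. It had 3328 and 1877 counts, levels of 35.2 and 22.4 FPKM, and a log2 ratio of −0.65 (−0.73 to −0.57), the lowest of class B. DNAJB4, its close relative, had 915 and 870 counts and a ratio of 0.10 (−0.03 to 0.24), an interval that included 0, though with scaling by total counts it was higher (0.15, 0.01 to 0.29). DNAJB6, a suppressor of the aggregation of polyglutamine proteins, had 5218 and 4079 counts and −0.18 (−0.24 to −0.12). DNAJB2, a ubiquitin-binding relative known from neurons, had 529 and 469 counts and 0.00 (−0.18 to 0.18). DNAJB5 was rare, with 68 and 49 counts and −0.29 (−0.86 to 0.25). DNAJC7, whose tetratricopeptide repeats bind HSP70 and HSP90, had 2576 and 1849 counts and −0.30 (−0.39 to −0.22).

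In all, 6 of these 9 genes (66.7%) were lower and none higher, and their median was −0.30. By the same rule 34.5% of protein-coding genes were lower, and 46.5% of those that reached a summed count of 1000. Of the 7 measured genes whose windows held GAANNTTC or TTCNNGAA, DNAJA1, DNAJA4, DNAJB1, DNAJB6 and DNAJC15 were lower, at −0.64, −0.56, −0.65, −0.18 and −0.31. DNAJB4, at 0.10, had an interval that included 0, and DNAJC6, at 1.20, was higher on 46 counts in all.

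Members assigned to the endoplasmic reticulum (ER), whose internal HSP70 is HSPA5 (BiP), lay near the background as a set. Of 10 measured, 4 (40.0%) were lower, 3 higher and 3 had intervals that included 0. Their median was −0.06, beside 34.5% lower and 26.4% higher among protein-coding genes. The 10 include membrane J proteins, and the partners of HSPA5 were not counted apart. DNAJB11 (ERdj3), a soluble cochaperone that binds nascent secretory proteins, on chromosome 3 (186567403 to 186585800), had 2174 and 1383 counts, for a log2 ratio of −0.48 (−0.58 to −0.38). DNAJC3 (p58IPK), another soluble BiP cochaperone, had 2108 and 1480 counts and −0.34 (−0.43 to −0.24). DNAJC1 (ERdj1), a membrane protein at the translocating ribosome, had 284 and 183 counts and −0.46 (−0.74 to −0.19). DNAJC10 (ERdj5), a disulfide reductase in ER-associated degradation, had 3400 and 2814 counts and a small difference of −0.10 (−0.17 to −0.03), which with scaling by total counts was −0.05 (−0.12 to 0.02). These 4 genes made up the lower set.

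DNAJB9 (ERdj4), which directs misfolded proteins to degradation and restrains the stress sensor IRE1, was the higher member of class B. It lies on chromosome 7 (108569867 to 108574850) and had 394 and 433 counts, levels of 5.99 and 7.42 FPKM, a log2 ratio of 0.31 (0.11 to 0.51). DNAJC16 (ERdj8) had 618 and 680 counts and 0.31 (0.15 to 0.47). DNAJC18, a membrane relative of DNAJB12 and DNAJB14, had 206 and 256 counts and 0.49 (0.22 to 0.76). DNAJB12 and DNAJB14 themselves, membrane J proteins of ER-associated degradation, had −0.09 (−0.21 to 0.03) and −0.03 (−0.11 to 0.06), and DNAJC14 had 0.05 (−0.05 to 0.15). DNAJC14 shares 23.2% of its exon bases, and DNAJB11 7.87%, with another annotated gene on the same strand, so their counts are uncertain. DNAJB9 and DNAJB11 are both induced by the unfolded protein response, and their intervals lay on opposite sides of 0. The ER stress element (ERSE), a CCAAT box spaced from a CCACG, searched on both strands, was in none of the members' windows and in 0.0769% of all windows.

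Of the 4 members assigned to the mitochondrion, 3 were lower. By the same rule 34.5% of protein-coding genes were lower, and 46.5% of those that reached a summed count of 1000. Each member was given 1 role from a list, and another assignment could change this count. DNAJC4 (0.54), DNAJC28 (0.17) and HSCB (−0.08), a J protein under another symbol, were not in this set. DNAJA3 (TID1), the class A cochaperone of the mitochondrial HSP70 HSPA9, had 2951 and 2140 counts, for a log2 ratio of −0.29 (−0.37 to −0.21). DNAJC11, a protein of the outer membrane that contacts the cristae-organizing MICOS complex, had 2899 and 2098 counts and −0.29 (−0.37 to −0.21). DNAJC15 (MCJ), of the inner membrane, had 397 and 284 counts and −0.31 (−0.53 to −0.09). DNAJC30, by contrast, had 375 and 388 counts and 0.22 (0.01 to 0.43), and with DESeq2 scaling its interval included 0 (0.18, −0.02 to 0.39).

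Members that act at ribosomes, chromatin, spliceosomes and in translation factor modification had 4 lower (66.7%) and none higher of 6, with a median of −0.26, beside 46.5% lower among protein-coding genes that reached a summed count of 1000. DNAJC9, on chromosome 10 (73183362 to 73248268), a cochaperone that also binds histones H3 and H4 during their supply to chromatin, had the lowest ratio of all 38 members. It had 3477 and 1898 counts, levels of 34.9 and 21.5 FPKM, a log2 ratio of −0.70 (−0.78 to −0.62). Its window held TTTCGCGC, 1 of the 2 forms of the E2F site searched (TTTGGCGC and TTTCGCGC, both strands), shown here on the strand of the gene with the match in capitals, at chr10:73247256-73247280 on the minus strand, in an annotated untranslated exon of DNAJC9.
DNAJC9: ggctttttggGCGCGAAAaagaagc
The E2F letters were in 1.15% of all windows and, among members, also in those of DNAJC5G and DNAJC6. DNAJC8, a protein of the spliceosome, had 3843 and 2493 counts and −0.45 (−0.52 to −0.38). DNAJC2 (MPP11), which works at the ribosome tunnel exit, had 2425 and 1699 counts and −0.34 (−0.43 to −0.25), and DNAJC21, a factor of large ribosomal subunit maturation, had 3381 and 2630 counts and −0.19 (−0.26 to −0.11). DNAJC17, a splicing-linked J protein, and DNAJC24 (DPH4), of diphthamide synthesis, had −0.11 (−0.37 to 0.14) and −0.16 (−0.33 to 0.02).

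Members of vesicles and endosomes showed small differences or low counts. DNAJC5, the cysteine string protein that keeps exocytosis proteins folded, had 4290 and 3400 counts, levels of 31.0 and 27.7 FPKM, and a ratio of −0.16 (−0.23 to −0.10). DNAJC13 (RME-8), an endosomal sorting protein, had 3728 and 3360 counts and 0.02 (−0.04 to 0.09), or 0.07 (0.0049 to 0.14) with scaling by total counts. DNAJC27, a Rab-like GTPase with a J domain, had −0.04 (−0.30 to 0.22). DNAJC6 (auxilin), the neuronal factor that uncoats clathrin vesicles, had 15 and 31 counts, a ratio of 1.20 (0.29 to 2.22), at levels of 0.0832 and 0.194 FPKM. GAK, the widely expressed auxilin, which carries a J domain under another symbol, had 1859 and 1772 counts and 0.10 (0.01 to 0.20). DNAJC5B, a relative of DNAJC5, had 65 and 66 counts and 0.20 (−0.32 to 0.71).

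The remaining class C genes were of low level. DNAJC4 had 228 and 295 counts, a ratio of 0.54 (0.29 to 0.80), but 10.6% of its exon bases overlap NUDT22 on the same strand, so its count is uncertain. DNAJC25, which shares 13.7% of its exon bases with the readthrough DNAJC25-GNG10 and is likewise uncertain, had 226 and 183 counts and −0.13 (−0.42 to 0.16), DNAJC22 had 14 and 8 and −0.60 (−2.09 to 0.72), and DNAJC28 had 15 and 15 and 0.17 (−0.96 to 1.31). The intervals of these 3 genes included 0. The 6 members that were not measured were DNAJB7 and DNAJB8, known from testis, and the readthrough DNAJC25-GNG10, with 0 counts in both libraries, DNAJB13, a protein of motile cilia, with 3 and 1, DNAJC5G with 2 and 3, and DNAJC12, a cochaperone of aromatic amino acid hydroxylases, with 6 and 6. A count of 0 allows a level of up to 0.116 CPM in DMSO and 0.131 CPM in omipalisib. Most exons of the readthrough are shared with GNG10 and DNAJC25, and such shared fragments are not counted for it.

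Levels per length spread widely around the most abundant member. The order of the leading genes in DMSO was DNAJA1, DNAJC8, DNAJB1, DNAJC9 and DNAJC5, and in omipalisib DNAJC5 moved from rank 5 to rank 3, ahead of DNAJB1 and DNAJC9. DNAJB1 and DNAJC9 lay close together in each library, at 35.2 and 34.9 FPKM in DMSO and 22.4 and 21.5 in omipalisib. Fragments of the 44 genes made up 0.279% (0.277% to 0.281%, exact binomial interval) of the DMSO library and 0.235% (0.233% to 0.237%) of the omipalisib library. The class A share of DNAJ fragments was 27.1% (26.8% to 27.5%) in DMSO and 23.2% (22.8% to 23.5%) in omipalisib. The class B share was 21.9% (21.6% to 22.2%) and 22.9% (22.6% to 23.3%), and the class C share 50.9% (50.5% to 51.3%) and 53.9% (53.5% to 54.3%). The summed level was 584.5 FPKM in DMSO and 450.6 FPKM in omipalisib. DNAJA1 made up 30.3% and 25.1% of it and 47.5% of the difference, and DNAJA1, DNAJC8, DNAJC9 and DNAJB1 together made up 77.4% of the difference.

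**Figure D2:**
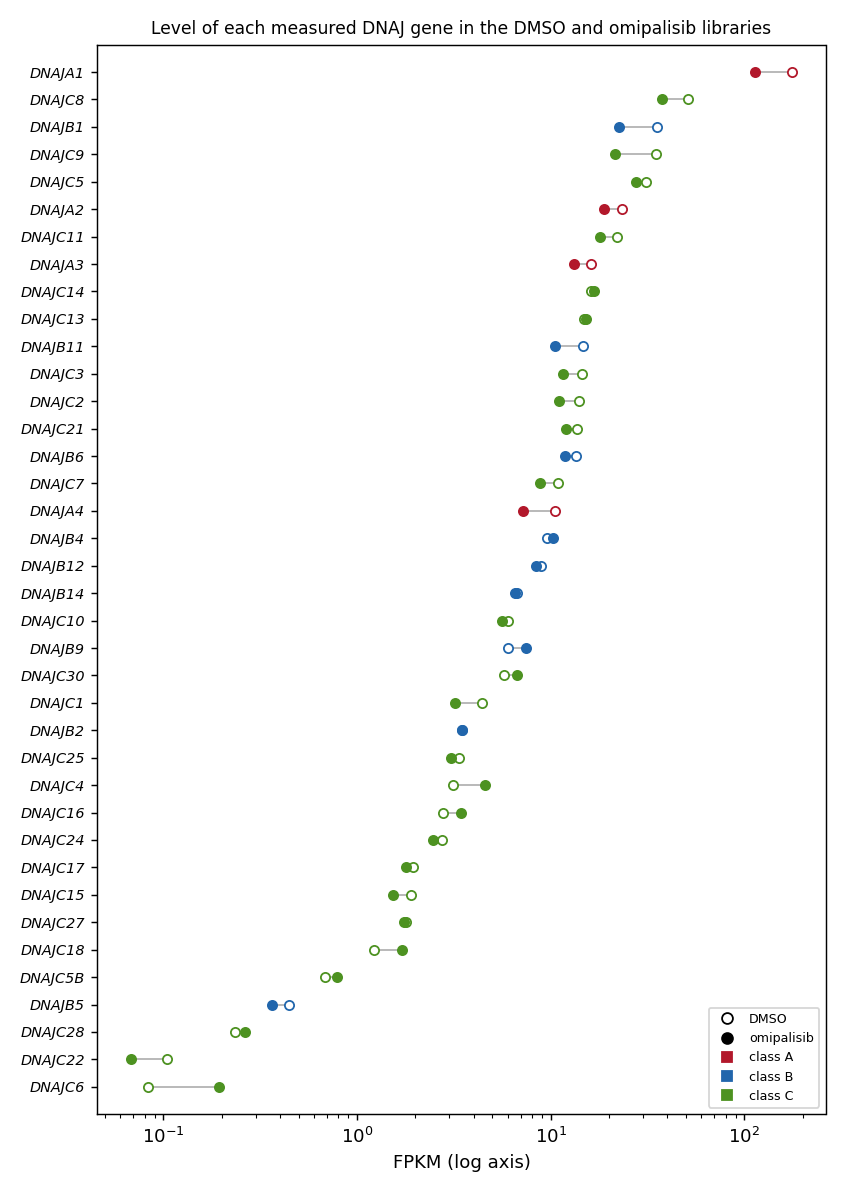
Level in FPKM (log axis) of each measured DNAJ gene in the DMSO (open) and omipalisib (filled) libraries, ordered by the DMSO level and coloured by class. The top 8 genes all lie further left in omipalisib, and DNAJA1 stands apart at 176.9 and 113.3 FPKM.

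In lists of genes that work with the J proteins, which overlap in part, lower genes made up 72.7% of the HSP70 family, 76.9% of nucleotide exchange factors and 93.3% of HSP90 and its cochaperones, against 47.4% of the DNAJ genes and 34.5% of protein-coding genes. Of protein-coding genes that reached a summed count of 1000, 46.5% were lower, as were 69.6% of the DNAJ genes of that depth. The median summed counts of these lists were 1042, 2288 and 10772, in that order. No test of these shares was made. Among the HSP70 genes, 8 of 11 measured were lower and none was higher, and the median log2 ratio was −0.53. HSPA8 had 143259 and 76171 counts, a ratio of −0.74 (−0.75 to −0.72), and the inducible HSPA1A and HSPA1B, near-identical copies whose counts are uncertain, had −0.74 and −0.70. HSPA6, at 0.14 (−0.25 to 0.52), and HSPA13, at −0.09 (−0.17 to −0.01), were the highest of the list. Among nucleotide exchange factors, 10 of 13 were lower and none was higher, around a median of −0.49, from HSPH1 at −0.84 and HSPA4L at −0.62 to SIL1 at −0.04 and BAG5 at 0.04, whose intervals included 0. HSP90 and its cochaperones had 14 lower genes and 1 higher gene among 15, and a median of −0.39. FKBP4 had −0.89 and HSP90AA1 −0.73 at one end, CDC37 had −0.12, and TSC1 was the higher gene at 0.22.

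In the list of heat shock genes, 11 of 12 (91.7%) were lower, none was higher, and the median was −0.65. By the same rule 34.5% of protein-coding genes were lower and 26.4% higher. Of those that reached a summed count of 1000, 46.5% were lower and 27.0% higher. HSF1 itself had 3358 and 2880 counts and −0.05 (−0.12 to 0.02), and HSPB1 had −0.44. In the list of ER stress genes, 10 of 15 (66.7%) were lower, above those shares, and 3 (20.0%) were higher, below them. Their median was −0.48. SDF2L1, which forms a complex with DNAJB11, had −0.91 (−1.13 to −0.69) and PDIA4 −0.78, while EDEM1 and HERPUD1 were higher at 0.35 and 0.48. Of 3 J proteins listed under other symbols, HSCB had −0.08 (−0.41 to 0.25) and SEC63 −0.05 (−0.12 to 0.02), intervals that included 0, beside GAK, which was higher.

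**Figure D3:**
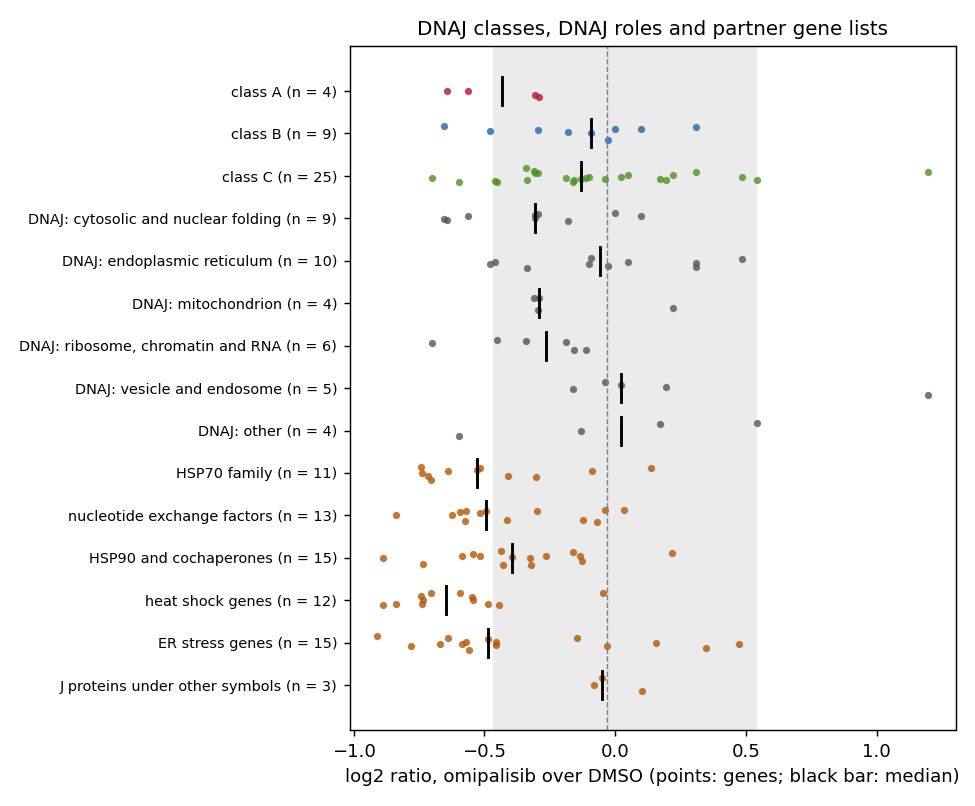
Log2 ratio, omipalisib over DMSO, of each measured gene (points) by DNAJ class, DNAJ role and partner list, with the median of each row as a black bar. The dashed line is the median of measured protein-coding genes (−0.03) and the grey band their 10th to 90th percentiles; the medians of the heat shock genes (−0.65) and the HSP70 family (−0.53) lie left of those of all 3 DNAJ classes.

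The HSP70 message per DNAJ message was set out for each compartment from summed FPKM. Genes were grouped by compartment and not by known pairing, so a sum can hold J proteins that do not work with that HSP70. The ER sum includes the membrane proteins DNAJB12, DNAJB14 and DNAJC18. The sums leave out the other HSP70 genes, among them HSPA13, at 25.7 FPKM in DMSO and 24.2 in omipalisib. They also leave out the J proteins under other symbols, HSCB, GAK and SEC63, the last at 17.7 and 17.1 FPKM. In the cytosol and nucleus, HSPA8, HSPA1A and HSPA1B summed to 1160 FPKM in DMSO and 696.1 in omipalisib, and the 9 DNAJ genes of general folding to 283.7 and 196.4, a ratio of 4.09 and 3.54. In the ER, HSPA5 had 218.5 and 140.2 FPKM and the 10 DNAJ genes 81.2 and 75.0, a ratio of 2.69 and 1.87. In the mitochondrion, HSPA9 had 80.8 and 60.8 FPKM and the 4 DNAJ genes 45.7 and 39.3, a ratio of 1.77 and 1.55. In each compartment the log2 ratio of the HSP70 genes taken was below that of the summed DNAJ genes. The log2 ratio of HSPA5 was −0.64 (−0.67 to −0.61) and that of the summed counts of ER DNAJ genes −0.11 (−0.15 to −0.08). In the cytosol and nucleus the values were −0.74 (−0.75 to −0.72) and −0.44 (−0.47 to −0.41), and in the mitochondrion −0.41 (−0.44 to −0.37) and −0.26 (−0.31 to −0.20). None of these pairs of intervals overlapped.

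**Figure D4:**
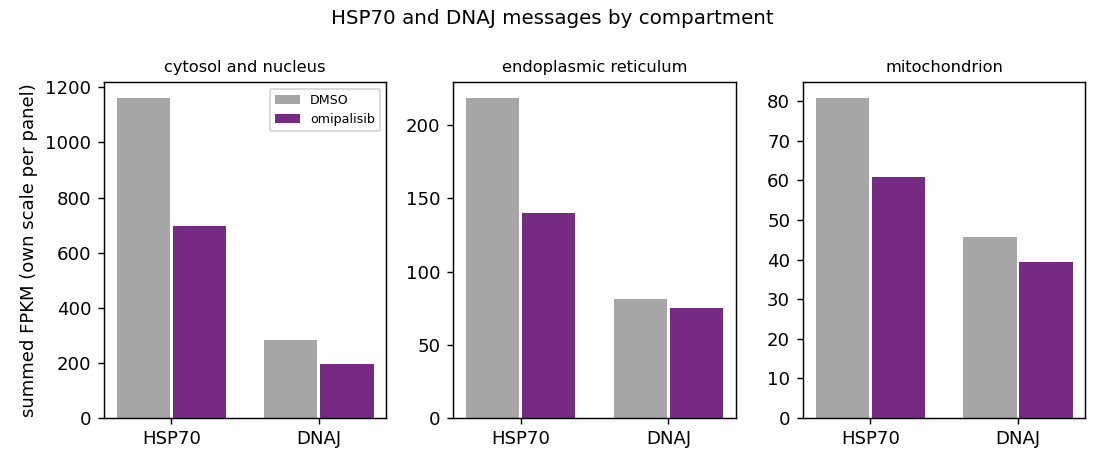
Summed FPKM of the HSP70 genes and of the DNAJ genes of the cytosol and nucleus, the ER and the mitochondrion, in the DMSO (grey) and omipalisib (purple) libraries, each panel on its own scale from 0. In the ER the HSP70 bar is 218.5 in DMSO and 140.2 in omipalisib, while the DNAJ bars are 81.2 and 75.0.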

How the data were processed

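Per the labels' protocols, RNA was purified on NucleoSpin columns and TruSeq stranded libraries were made. The deposited values are raw counts. The authors' counting, per the file headers, used featureCounts 2.0.1 on exons, summed by gene, with strand setting 2, and required both mates to align at a plausible distance. No aligner is named in the sources used here. Fragments with several alignments are dropped by that tool unless an option is set, and none is, so near-identical copies lower a gene's count: DNAJA1 has 6 annotated pseudogenes, DNAJB6 8, DNAJC8 4 and DNAJB1 2. The submitters' processing notes name hg19 and GRCh37. Gene positions match GRCh38: 58516 of the 60623 genes are in GENCODE release 29, which gave the biotypes, and 58513 overlap its positions. Promoter windows came from RefSeq.

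Libraries were scaled by TMM (edgeR 4.0.16, R 4.3.3; factors 0.983 for DMSO, 1.02 for omipalisib). Intervals are exact Clopper-Pearson intervals of the omipalisib share of a gene's counts, turned into ratios, at 95%. They cover counting error only, and may be too narrow even for that, since without molecular identifiers several reads can stem from 1 molecule. Medians carry order-statistic intervals. The procedure was also run on counts simulated with counting error only. These hold no difference between cultures and no repeated reads of 1 molecule, so that run cannot check the calls for either. Members and lists were chosen with earlier results of these data known. All members were named, and of each partner list the 2 lowest and 2 highest genes reaching a summed count of 100, besides HSPA1A, HSPA1B, HSPA5, HSPA8 and HSPA9. A further class C gene is not reported here. In all, 8 motifs were searched; those not described are the CCAAT box (17 members, 34.6% of all windows), the cyclic AMP response core TGACGT (9 members, 7.98%), the E-box CACGTG (4 members, 7.26%) and the FOXO core TGTTTAC (2 members, 3.42%), each on both strands. Alternatives were scaling by total counts or by DESeq2 1.42.0 median of ratios, a pseudocount of 2, a minimum summed count of 100 or none, a thinned DMSO library, and a laxer (1.25) and a stricter (2) fold.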

Additional observations from a re-analysis of the deposited data

How the results depend on the processing

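The medians of all DNAJ genes and of classes A, B and C kept their sign under each scaling, pseudocount, count minimum and depth tried, but the small ones moved in size: class B was −0.04 with total counts, −0.13 with DESeq2 scaling and −0.14 without a count minimum, against −0.09, and class C ran from −0.17 with DESeq2 scaling to −0.08 with total counts, against −0.13. A change of scaling shifts every ratio by the same amount. The median of protein-coding genes thus moved too, to 0.02 with total counts and −0.07 with DESeq2 scaling, against −0.03. With DESeq2 scaling 4 members, against 3, were at least 1.5-fold lower. The number of members at least 1.5-fold higher rests on DNAJC6, with few counts: it was 2 with scaling by total counts and 0 with a minimum summed count of 100, which removes that gene. At the laxer fold, 9 members (23.7%) were lower and 3 (7.89%) higher, against 16.2% and 15.2% of protein-coding genes. At 2-fold none was lower and 1 was higher, and no share of all genes is given at that fold. Across the scalings, 17 to 20 members were lower and 5 to 8 higher by their intervals. With TMM scaling 34.5% of protein-coding genes were lower and 26.4% higher, and their shares under the other scalings are not given. The members that crossed were DNAJB4 and DNAJC13, higher with total counts, DNAJC10, no longer lower with total counts, DNAJB12 and DNAJC24, lower with DESeq2 scaling, and DNAJC30, no longer higher with it. No paired analysis was possible because each treatment has 1 library. For the same reason no library could be left out, and differences between cultures are outside every interval given.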

Other observations

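The annotation also holds 24 pseudogenes with DNAJ symbols, among them DNAJB3, which has a symbol of its own, and 8 antisense or divergent RNA genes named after the reported members. Of the pseudogenes, 18 had 0 counts in both libraries and 3 were measured. DNAJB6P1 had 133 counts in DMSO and 83 in omipalisib, a log2 ratio of −0.50 (−0.92 to −0.10), DNAJC8P1 had 65 and 39 and −0.56 (−1.17 to 0.03), and DNAJC8P2 had 64 and 35 and −0.69 (−1.33 to −0.08). Whether these fragments came from the pseudogenes or from the parent messages was not tested. Of the antisense and divergent genes, 2 were measured. DNAJC3-DT, transcribed away from the DNAJC3 start, had 88 and 65 counts and −0.26 (−0.75 to 0.22). DNAJC9-AS1, opposite DNAJC9, is listed under 2 gene identifiers, of which 1 was measured, with 61 and 33 counts and −0.70 (−1.37 to −0.08). DNAJC9 itself had 3477 and 1898 counts and −0.70. The source of the DNAJC9-AS1 fragments, an antisense RNA or DNAJC9 fragments assigned to the wrong strand, was not tested.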
